A study of Mus musculus with 11 samples.

Results

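Of 24430 acetylated regions mapped in mouse thymocytes, 2071 (8.48%) were called in every H3K27ac library, were shorter than 10000 bp and overlapped a reproducible binding site of Smc1a, a subunit of cohesin. They are called Smc1a-bound regions here. The 24430 regions were union intervals of all touching or overlapping H3K27ac peaks on the mouse build mm9. A reproducible Smc1a site was a merged Smc1a interval with a peak of both Smc1a replicates, and an overlap of 1 bp was enough. The Smc1a-bound regions were chosen by measured values: the presence of peaks, the length of the union interval and the Smc1a calls. The rule treated the 4 H3K27ac libraries alike. Presence in all libraries, length below the limit and Smc1a overlap are therefore properties of the choice and not results.

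The cells were CD4+ CD8+ double positive thymocytes sorted from mice aged 6 weeks. H3K27ac had been mapped in 2 libraries of Rad21 -/- cells (KO), in which a floxed Rad21 allele was deleted by a Cre transgene under Cd4 control, and in 2 libraries of wild-type control cells (WT). The design text describes the mutants and controls as littermates. Smc1a had been mapped in 2 libraries of wild-type cells alone, so cohesin occupancy in KO cells is not known from these data. Deletion by this transgene starts in the thymocyte, and the amount of Rad21 protein left at the time of sorting is not given in the sources used here. Neither the identity of the cells nor the loss of Rad21 was checked, because no mm9 gene annotation was used.

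Cohesin is a ring-shaped complex of Smc1a, Smc3, the kleisin Rad21 and a Stag subunit. It holds sister chromatids together and extrudes chromatin into loops, and Rad21 closes the ring. In interphase cells it is found at CTCF sites and also at active promoters and enhancers. H3K27ac, acetylation of lysine 27 on histone H3, marks those active promoters and enhancers. Double positive thymocytes are the stage at which the T cell receptor alpha locus rearranges, and few of them divide.

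The files held peak intervals with a score and no reads, so sequencing depth is unknown. A library's covered length of a region is the number of its bases under a peak of that library, which measures how far a call extended and not how much acetylation there was. The H3K27ac lists held 19503 peaks (KO replicate 1), 20244 (KO replicate 2), 21973 (WT replicate 1) and 15686 (WT replicate 2), and the Smc1a lists 25484 and 17726. KO replicate 2 had the shortest covered lengths and WT replicate 2 the fewest peaks, so results are given with each library left out where that moved them. Peaks on the Y chromosome were called in KO replicate 2 and WT replicate 2 (4 each) and in neither replicate 1. Whether replicates are separate mice is not stated in the labels, so p-values measure only the spread between these samples, which may be technical. A missing peak is a missing call, and acetylation in fewer cells cannot be told apart from less acetylation per cell.

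The Smc1a-bound regions had a median length of 3907 bp (quartiles 2652 and 5864 bp, range 849 to 9987 bp). The 9493 shared regions below the length limit without a reproducible Smc1a site had a median of 2707 bp (quartiles 2093 and 3707 bp), and they serve as the comparison set. They include 2057 regions with a Smc1a peak of 1 replicate. The share of shared regions that were Smc1a-bound was higher in each longer class. It was 9.08% (95% Wilson interval 7.95 to 10.4) below 2000 bp, 11.5% (10.6 to 12.5) from 2000 to 2999 bp, 17.3% (15.8 to 18.9) from 3000 to 3999 bp, 27.1% (25.1 to 29.2) from 4000 to 5999 bp and 45.4% (42.5 to 48.4) from 6000 bp up. A longer interval can also meet a site more easily, so these shares are a description. Smc1a-bound regions lay on 20 chromosomes, and made up 14.3% to 23.8% of the shared regions below the length limit on each.

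Regions just inside and just outside the length limit are given as a description. The longest Smc1a-bound region, chr3:103660697-103670683, spanned 9987 bp and was covered over 9067 and 7786 bp in KO libraries and over 9810 and 8945 bp in WT libraries. The shortest shared region with a Smc1a site above the limit, chr17:35801869-35811875, spanned 10007 bp and was covered over 9673 and 8456 bp in KO and over 9423 and 10007 bp in WT libraries. At the other threshold, 8 Smc1a-bound regions overlapped their sites by less than 100 bp in all, with a lowest overlap of 5 bp, and 17 regions of the comparison set had a site within 100 bp of an end. In all, 396 regions of 10000 bp or more carried a reproducible site and were not included.

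Most Smc1a-bound regions, 1878 of 2071 (90.7%), held a single reproducible site, while 175 held 2, 16 held 3 and 2 held 4. Together they contained 2278 sites, 15.3% of the 14848 reproducible sites. The position of the sites within the acetylated stretch is given as a description, by the midpoint of the part of the site inside the region. Of 2284 pairs of a region and a site, 1674 (73.3%) had this midpoint in the middle 50% of the region. In 162 (7.09%) it lay in the outermost 10% at either end, and in 280 (12.3%) the site ran across the region's end. The median overlap was 986 bp, and the width of a site keeps its midpoint away from the ends. No expected shares were computed, so a preference for the middle was not tested. Site bases made up 28.9% of the length of the regions.

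Smc1a peaks in these regions were wide and of middling rank. Their median width was 861 bp in Smc1a replicate 1 and 909 bp in replicate 2, against 688 and 665 bp at the 12570 other reproducible sites. Their median score, the authors' own value from the peak caller, was 170.0 and 126.0, against 286.1 and 138.7 at the other sites. As a percentile within each list the medians were 53.6 and 53.7, against 69.9 and 57.6. Smc1a calls in the Smc1a-bound regions were thus broader and ranked lower than those at the other sites in both replicates. The other sites include those in the 396 acetylated regions of 10000 bp or more, so they are not all outside acetylated chromatin. These values come from the peaks that chose the regions and were not tested.

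Over all lengths, the H3K27ac peaks of Smc1a-bound regions ranked higher within every list than those of regions without a site. The best peak of a region had a median score percentile of 78.0 and 76.7 in KO libraries and of 80.6 and 77.2 in WT libraries. For regions without a site the medians were 63.4 and 64.2 in KO and 67.4 and 53.6 in WT libraries. Much of this contrast went with length. Below 2000 bp the medians of Smc1a-bound regions were 42.2 and 38.1 in KO and 46.3 and 35.6 in WT libraries, and those of regions without a site were 43.1 and 44.0 in KO and 47.2 and 33.3 in WT libraries, so 3 of the 4 libraries had the opposite order. From 6000 bp up they were 94.0 and 93.0 in KO and 96.3 and 93.0 in WT libraries, against 90.0 and 89.9 in KO and 91.6 and 87.2 in WT libraries. Scores of 3100 or more, where many peaks are tied, were reached by 18.0% and 18.8% of the Smc1a-bound regions in KO and by 21.7% and 13.2% in WT libraries. Ranks within lists that hold different numbers of peaks cannot show whether genotypes differ, and no such comparison was made.

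Smc1a-bound regions lay close to other acetylated regions. Another shared region was found within 12.5 kb of 1233 of them (59.5%, 95% interval 57.4 to 61.6), against 43.7% (42.7 to 44.7) of regions without a site. In the longest class, from 6000 bp up, the shares were 68.7% (64.5 to 72.6) and 65.4% (61.5 to 69.1), with overlapping intervals. From 3000 to 3999 bp they were 61.7% (56.8 to 66.4) and 46.6% (44.4 to 48.9). A further reproducible Smc1a site, outside the region itself, lay within 10000 bp of 39.7% (37.6 to 41.8) of the Smc1a-bound regions and of 29.2% (28.3 to 30.1) of the others. These intervals cover counting error only and treat neighbouring regions as independent.

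The first comparison asked whether acetylation at cohesin-bound regions extended equally far with and without Rad21. The median covered length of the 2071 regions was 3282 and 2880 bp in KO libraries and 3375 and 3436 bp in WT libraries. Both KO values lay below both WT values, with means of 3081 ± 284 bp in KO and 3406 ± 43.1 bp in WT (SD, n = 2 each). The KO minus WT difference was -324.5 bp. This is smaller than the gap between the KO libraries, and the exact permutation test gave p = 0.33, the smallest that 2 libraries against 2 allow (two-sided). Without KO replicate 2 the difference was -123.5 bp and without KO replicate 1 it was -525.5 bp, so its size depended on which KO library was used. When Smc1a peaks of replicate 1 alone chose the regions it was -142 bp, and the groups overlapped (p = 1, exact permutation test). In Smc1a-bound regions below 5000 bp it was -181.5 bp.

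Regions without a reproducible Smc1a site did not show this order of the libraries. Their median covered length was 2384 and 2167 bp in KO and 2336 and 2257 bp in WT libraries, so the groups overlapped (exact permutation test, p = 1). Within each library, the median log2 covered length of Smc1a-bound regions exceeded that of the other regions by 0.46 and 0.41 in KO and by 0.53 and 0.61 in WT libraries. The excess was therefore smaller in both KO libraries, with a KO minus WT difference of -0.13 (means 0.44 ± 0.04 in KO and 0.57 ± 0.05 in WT, SD, n = 2 each). The test of this difference gave p = 0.33, again the smallest possible (two-sided exact permutation test). Leaving out 1 library at a time gave -0.17 to -0.10, and with peaks of Smc1a replicate 1 alone it was -0.06. Within classes of region length it was smaller, from -0.07 to -0.02, so part of it went with length.

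**Figure D1:**
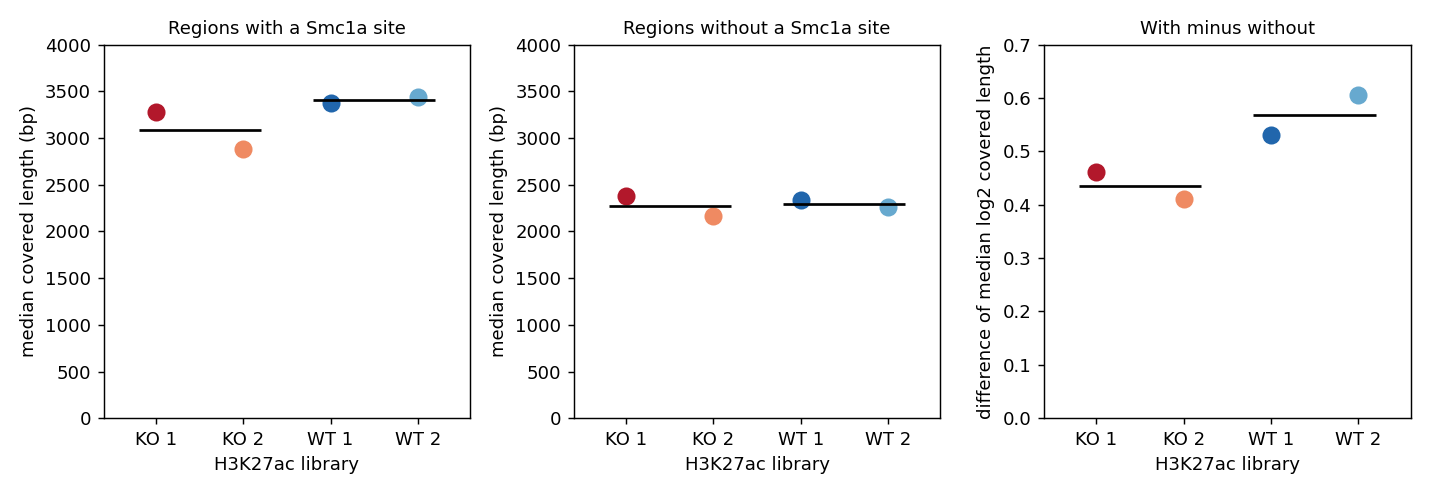
Median covered length per H3K27ac library (bp, left and middle panels) of Smc1a-bound regions and of shared regions without a reproducible Smc1a site, and the difference between both sets in median log2 covered length (right panel); points are libraries and lines are group means. In the left panel both KO libraries (3282 and 2880 bp) lie below both WT libraries (3375 and 3436 bp), in the middle panel the groups overlap, and in the right panel KO libraries (0.46 and 0.41) lie below WT libraries (0.53 and 0.61).

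Covered length was also tested region by region. No region passed limma's moderated test with Benjamini-Hochberg adjustment over all 12129 shared regions at an adjusted p of 0.05, in either direction (percent called 0 each). The lowest adjusted p was 0.256. At an unadjusted p below 0.05, which 8.38% of all shared regions reached in either direction, 188 Smc1a-bound regions (9.08%) were lower in KO, against 5.55% of all shared regions, and 46 (2.22%) were higher, against 2.84%. A further fit added regions called in at least 2 libraries, with a pseudocount of 100 bp. At an adjusted p below 0.05, limma then called 22 Smc1a-bound regions lower and 5 higher in KO (1.30% in all). Of the 9493 regions without a site it called 30 lower and 18 higher (0.506% in all). Over all 19275 regions of that fit it called 2.83% lower and 3.28% higher. Of these 1178 calls, 1097 were in regions missing from a library, which no Smc1a-bound region is by choice. The median log2 change, KO minus WT, was -0.08 over Smc1a-bound regions, -0.01 over regions without a site and -0.02 over all shared regions. The change was below 0 in 1373 of the 2071 Smc1a-bound regions (66.3%) and in 51.9% of the regions without a site. In the 396 shared regions of 10000 bp or more with a site, the median was -0.10 and 81.6% lay below 0. The shift was thus not particular to the regions below the length limit. Shared regions of 10000 bp or more without a site were not summarised. The change also went with length: from 6000 bp up the medians were -0.11 with a site and -0.07 without. From 3000 to 3999 bp they were -0.10 and -0.01. The median change of Smc1a-bound regions was -0.01 without KO replicate 2 and -0.14 without KO replicate 1, and that of regions without a site was then 0.04 and -0.06.

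Both KO values lay below both WT values in 670 Smc1a-bound regions (32.4%, 95% interval 30.4 to 34.4), against 22.9% of all shared regions and 19.4% (18.6 to 20.2) of those without a site. The reverse order was seen in 247 (11.9%, 10.6 to 13.4), against 17.4% of all shared regions and 19.2% (18.4 to 20.0) without a site. The share with lower KO values was higher in Smc1a-bound regions on 20 of 20 chromosomes, and the share with higher KO values was lower on 19 of 20. With KO replicate 2 left out, KO replicate 1 lay below both WT libraries in 37.9% of Smc1a-bound regions and in 25.7% of regions without a site (28.9% of all shared regions), and above both in 30.9% and 42.2% (39.3% of all). Without KO replicate 1, lower KO values were seen in 60.9% and 46.4% (50.3% of all) and higher ones in 17.4% and 27.6% (25% of all). Smc1a-bound regions had the larger share of lower KO values with either KO library left out. Without WT replicate 1, the lower shares were 49.3% and 31.1% (35.6% of all) and the higher ones 20.7% and 35.0% (31.6% of all). Without WT replicate 2, they were 46.7% and 37.6% (40.4% of all) and 24.8% and 31.4% (29.5% of all). The order of both sets was the same with either WT library left out. These are counts over regions of the same 4 libraries and were not tested.

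The share with lower KO values was higher in Smc1a-bound regions within each length class, by unequal amounts. Among regions of 3000 to 3999 bp, KO values lay below WT values in 32.2% of 397 Smc1a-bound regions and in 19.2% of 1899 regions without a site. From 6000 bp up the shares were 43.0% of 498 and 33.2% of 599, and below 2000 bp they were 20.6% of 199 and 16.7% of 1993. Within the 3 classes from 2000 to 5999 bp, the excess in median log2 covered length over regions without a site was below both WT values in both KO libraries. The excess itself was much smaller there than over all lengths. It ran from -0.03 to 0.01 in KO and from 0.01 to 0.09 in WT libraries, and WT replicate 2 was highest in each class. The KO minus WT difference was -0.05, -0.07 and -0.06 in these classes, against -0.13 over all lengths. Below 2000 bp it was 0.01 and -0.04 in KO and -0.02 and 0.03 in WT libraries, and from 6000 bp up it was 0.03 and 0.02 in KO and 0.03 and 0.12 in WT libraries. The groups overlapped in both of these classes. Among regions with no shared neighbour within 12.5 kb, KO lay below WT in 26.1% of 838 Smc1a-bound regions and in 15.1% of 5343 others, and among those with a neighbour in 36.6% of 1233 and 24.8% of 4150.

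Regions were then ordered by how much Smc1a lay at or near them. KO values lay below WT values in 32.4% of regions with a reproducible site, in 25.5% of 2057 with a peak of 1 replicate and in 20.9% of 2071 with no peak but a site within 10000 bp. The share was 17.3% of 4553 regions with the nearest site more than 10000 and up to 100000 bp away and 11.8% of 812 with none within 100000 bp. The opposite order, KO above WT, was seen in 11.9%, 15.9%, 17.9%, 20.0% and 26.6% of the same classes. Lengths moved with this order, from a median of 3907 bp in the first class to 2288 bp in the last. Among regions of 2000 to 2999 bp alone, the shares with lower KO values were 26.5%, 20.9%, 18.7%, 15% and 11.3%. From 4000 to 5999 bp they were 32.1%, 29.5%, 24.7%, 23.3% and 18.0%, the last over 50 regions. The shares with higher KO values rose steadily from 2000 to 2999 bp, with 16.0%, 16.7%, 21.4%, 21.5% and 28.6%. They did not keep a steady order in the longer classes. There they were 13.1%, 18.4%, 14.5%, 21.8% and 23.6% from 3000 to 3999 bp, and 10.6%, 14.4%, 15.7%, 13.3% and 14% from 4000 to 5999 bp.

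**Figure D2:**
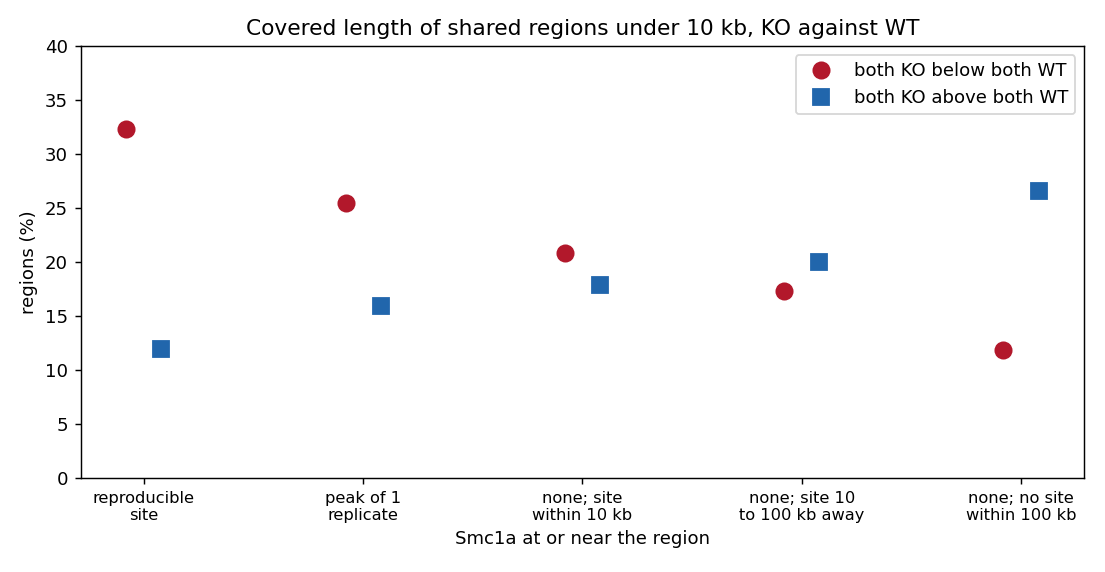
Share of shared regions below 10000 bp (vertical axis, percent) in which both KO covered lengths lie below (circles) or above (squares) both WT covered lengths, by Smc1a at or near the region (horizontal axis). Circles run from 32.4% at regions with a reproducible site to 11.8% at regions with no site within 100000 bp, and squares from 11.9% to 26.6%.

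Among the Smc1a-bound regions themselves, the share with lower KO values was highest at the strongest Smc1a calls. Ranked by the weaker of the Smc1a percentiles of their best site and divided into 3 groups of equal size, they had lower KO values in 28.6% of the weakest group, 30.7% of the middle and 37.8% of the strongest group. Regions with 1 site had lower KO values in 31.3% of 1878 cases, those with 2 sites in 44.0% of 175 and those with 3 or 4 sites in 33.3% of 18, so the share did not go steadily with site number. Across regions the relation was weak, with a Spearman rho of -0.09 between Smc1a rank and the log2 change (n = 2071 regions of the same libraries). Length had a rho of -0.16 with the log2 change, so rank, site number and length were not separated.

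The next question was where in the regions the calls differed. Bases under the Smc1a sites were called as acetylated almost throughout, 96.0% and 92.6% of them in KO libraries and 96.4% and 96.8% in WT libraries. Bases of the same regions outside the sites were called at 82.4% and 70.6% in KO and at 85.0% and 86.7% in WT libraries. For site bases the KO minus WT difference was -2.30 percentage points, with both KO below both WT libraries (two-sided exact permutation test, p = 0.33, the smallest possible). It was -0.628 points without KO replicate 2 and -3.97 points without KO replicate 1. With peaks of Smc1a replicate 1 alone it was -1.21 points and in regions below 5000 bp -1.54 points, and the groups overlapped in both cases (p = 0.667 each, exact permutation test). In the 670 regions with lower KO values, site bases were covered at 93.4% and 90.0% in KO and at 98.2% and 98.6% in WT libraries, and the other bases at 71.9% and 60.5% in KO and at 91.2% and 92.5% in WT libraries. These 670 were chosen by covered length, so both gaps are descriptions.

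The difference between genotypes was greater in bins farther from Smc1a up to 2000 to 2500 bp, and changed little beyond. Bins farther out draw on fewer bases and on longer regions. The bins held 1843784 bases within 500 bp of the site midpoint and 240811 at 3500 to 4000 bp. Distance and region length were therefore not separated here. In regions with 1 site, bases within 500 bp of the site midpoint were covered at 96.0% and 93.2% in KO and at 96.0% and 96.6% in WT libraries. At 1000 to 1500 bp the values were 85.7% and 74.2% in KO and 85.7% and 87.2% in WT libraries. Up to that distance KO replicate 1 was level with WT replicate 1, and KO replicate 2 alone lay below. At 2000 to 2500 bp they were 77.2% and 62.8% in KO and 81.9% and 83.6% in WT libraries. From 2000 to 4000 bp, coverage was level in every library. It stayed at 81.5% to 83.6% in WT libraries, at 75.2% to 77.2% in KO replicate 1 and at 62.1% to 65.3% in KO replicate 2. The KO minus WT difference of means ran from -1.69 points nearest the site to -12.8 points at 2000 to 2500 bp. It was -13.8 points at 3000 to 3500 bp and -12.0 points at 3500 to 4000 bp.

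**Figure D3:**
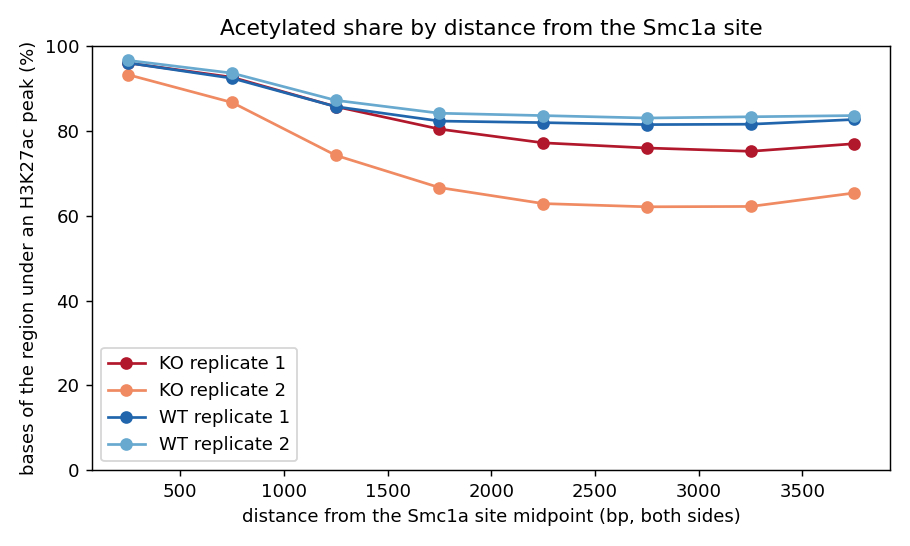
Share of the bases of Smc1a-bound regions with 1 site that lie under an H3K27ac peak (vertical axis, percent) by distance from the Smc1a site midpoint on either side (horizontal axis, bins of 500 bp), for the 4 libraries. All 4 libraries lie between 93.2% and 96.6% within 500 bp, and at 2000 to 2500 bp the KO libraries (77.2% and 62.8%) lie below the WT libraries (81.9% and 83.6%). Bins farther out draw on fewer bases and on longer regions.

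Bases far from a site are also nearer to the ends of a region. In the outermost 250 bp at either end, Smc1a-bound regions were covered at 51.3% and 34.4% in KO and at 53.1% and 57.6% in WT libraries, and regions without a site at 60.3% and 43.2% in KO and at 55.6% and 50% in WT libraries. To compare bases at like distances from an end, each region with 1 site was divided at its midpoint into the side that held the site and the opposite side, which have the same length. The side with the site was covered at 89.3% and 81.7% in KO and at 89.3% and 91.2% in WT libraries. The opposite side was covered at 83.0% and 72.4% in KO and at 86.7% and 87.1% in WT libraries. The gap between the sides was therefore 6.24 and 9.31 points in KO libraries and 2.63 and 4.06 points in WT libraries (means 7.77 ± 2.17 and 3.35 ± 1.02, SD, n = 2 each). The KO minus WT difference was 4.43 points (two-sided exact permutation test, p = 0.33, the smallest possible), and it was 2.89 points without KO replicate 2.

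The gap was wider in both KO libraries in regions below 4000 bp, with 6.29 and 10.2 points in KO and 3.95 and 5.11 in WT, and also from 4000 bp up, with 6.21 and 8.85 points in KO and 1.90 and 3.49 in WT. In 1904 regions of the comparison set that held 1 Smc1a peak of a single replicate, the gap was 5.88 and 9.83 points in KO and 5.54 and 5.58 in WT libraries. There KO replicate 1 lay nearer to the WT libraries than KO replicate 2 did. Below 4000 bp the gap in these regions was 5.38 and 10.3 points in KO and 6.48 and 5.84 in WT libraries, so the groups overlapped, and from 4000 bp up it was 6.39 and 9.32 points in KO and 4.59 and 5.33 in WT libraries, with both KO above both WT libraries. The WT gaps of the Smc1a-bound regions lay below both WT gaps of these regions.

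**Figure D4:**
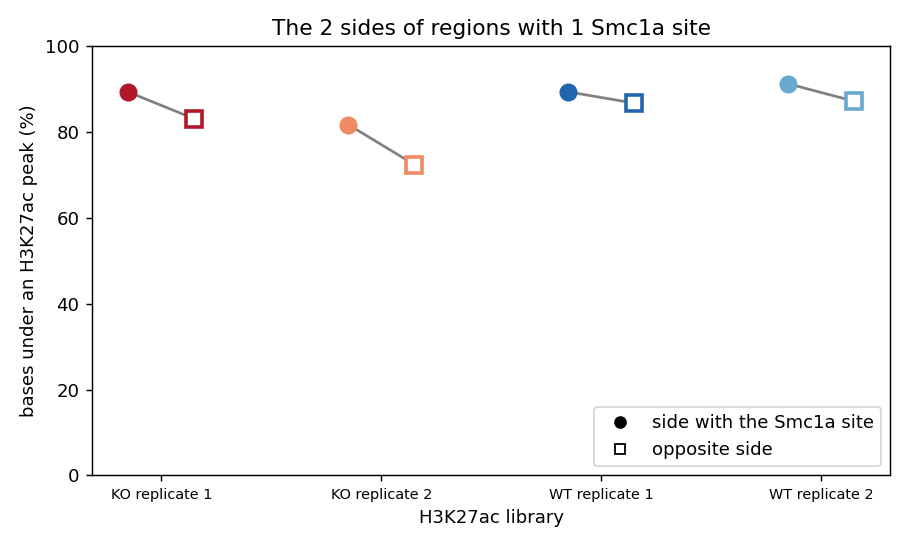
Share of bases under an H3K27ac peak (vertical axis, percent) on the side of the region that holds the Smc1a site (filled circles) and on the opposite side (open squares), for 1878 Smc1a-bound regions with 1 site in each library. The line from circle to square is steeper in the KO libraries (6.24 and 9.31 points) than in the WT libraries (2.63 and 4.06 points).

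Base by base, 3.75% of the length of Smc1a-bound regions was under a peak of both WT libraries and of neither KO library, and 1.00% was under a peak of both KO and neither WT library. In regions without a site the shares were 2.15% and 1.54%. Such WT-alone stretches occurred in 959 Smc1a-bound regions (46.3%), against 32.4% of those without a site, and KO-alone stretches in 517 (25%), against 32.8%. Of the WT-alone bases, 9.70% in Smc1a-bound regions lay in a gap between KO calls, and in 10 of the 113 regions with such a gap it touched the Smc1a site. Of the site bases, 1.26% were WT-alone and 0.397% were KO-alone.

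How often a region was called as several peaks did not separate the genotypes. It was 9.71% and 12.8% of Smc1a-bound regions in KO and 10.8% and 7.77% in WT libraries (two-sided exact permutation test, p = 0.667). The Smc1a-bound regions held 15% and 14.8% of all acetylated length in KO libraries and 14.3% and 18.0% in WT libraries, where WT replicate 1 was lowest and WT replicate 2 highest (exact permutation test, p = 1). The KO minus WT difference was -1.27 points, and without WT replicate 2 it was 0.542 points.

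Single regions show what these averages contain. The following were named for the size of their change. They came from Smc1a-bound regions with both KO values below, or both above, both WT values. Their KO and WT means differed by at least 500 bp, a limit that longer regions meet more easily. Their values chose them, none passed the adjusted test, and they are descriptions. At chr4:144632668-144641182 the covered length was 3052 and 892 bp in KO and 6270 and 8437 bp in WT libraries, a log2 change of -2.14. Its Smc1a site, from 144639842 to 144640960, was covered over 94.0% in KO replicate 1, over 0% in KO replicate 2 and fully in both WT libraries.

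At chr2:163483820-163489358 the KO calls spanned 1581 and 1458 bp and the WT calls 5477 and 5539 bp. Both KO calls lay inside the Smc1a site at the start of the region (163483769 to 163485639), and bases beyond the site were called in WT libraries alone. The region at chr18:5356995-5366617 was covered over 2481 and 2555 bp in KO and 9057 and 7596 bp in WT libraries, with the site fully covered in every library. At chr7:66019482-66028034, with 2 sites, the values were 2911 and 2831 bp in KO and 7326 and 8553 bp in WT libraries. With peaks within 1000 bp merged, the log2 change was -0.42 against -1.46 for this region, and -1.09 against -1.72 for the region on chromosome 18.

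Other regions lacked KO calls at the site itself. At chr9:57786219-57793815 the covered length was 3087 and 1737 bp in KO and 6602 and 7076 bp in WT libraries, and neither KO call touched the Smc1a site from 57791562 to 57793555. The region at chr12:82126254-82130115 was covered over 1962 and 879 bp in KO and 3013 and 3859 bp in WT libraries, with the site bases in the region uncovered in KO and covered over 100% and 99.5% in WT. Of the 10 Smc1a-bound regions with the most negative changes, 4 had a call on the site in both KO libraries and 9 in both WT libraries. For the region on chromosome 4 the log2 change was -1.25 without KO replicate 2, and for the region at chr12:82126254-82130115 it was -0.80, against -1.38 with all libraries.

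The 10 regions with the most positive changes had log2 changes of 0.86 to 1.26, smaller than the most negative ones. At chr11:64565457-64569312 the covered length was 3656 and 3635 bp in KO and 1383 and 1681 bp in WT libraries. It held 2 sites, and the WT calls reached the first of them (64565670 to 64566278) and not the second (64568930 to 64569469). At chr18:14824546-14828103 the values were 3371 and 3558 bp in KO and 1487 and 1509 bp in WT libraries, and the site was fully covered in all of them. The region at chr15:97493815-97497381 was covered over 3491 and 3534 bp in KO and 1955 and 1611 bp in WT libraries, and no WT call touched its site (97493978 to 97495094). Such sites, acetylated in both KO and neither WT library, were also seen at chr11:107852743-107856766, with 4024 and 3379 bp in KO and 2051 and 1911 bp in WT libraries.

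**Figure D5:**
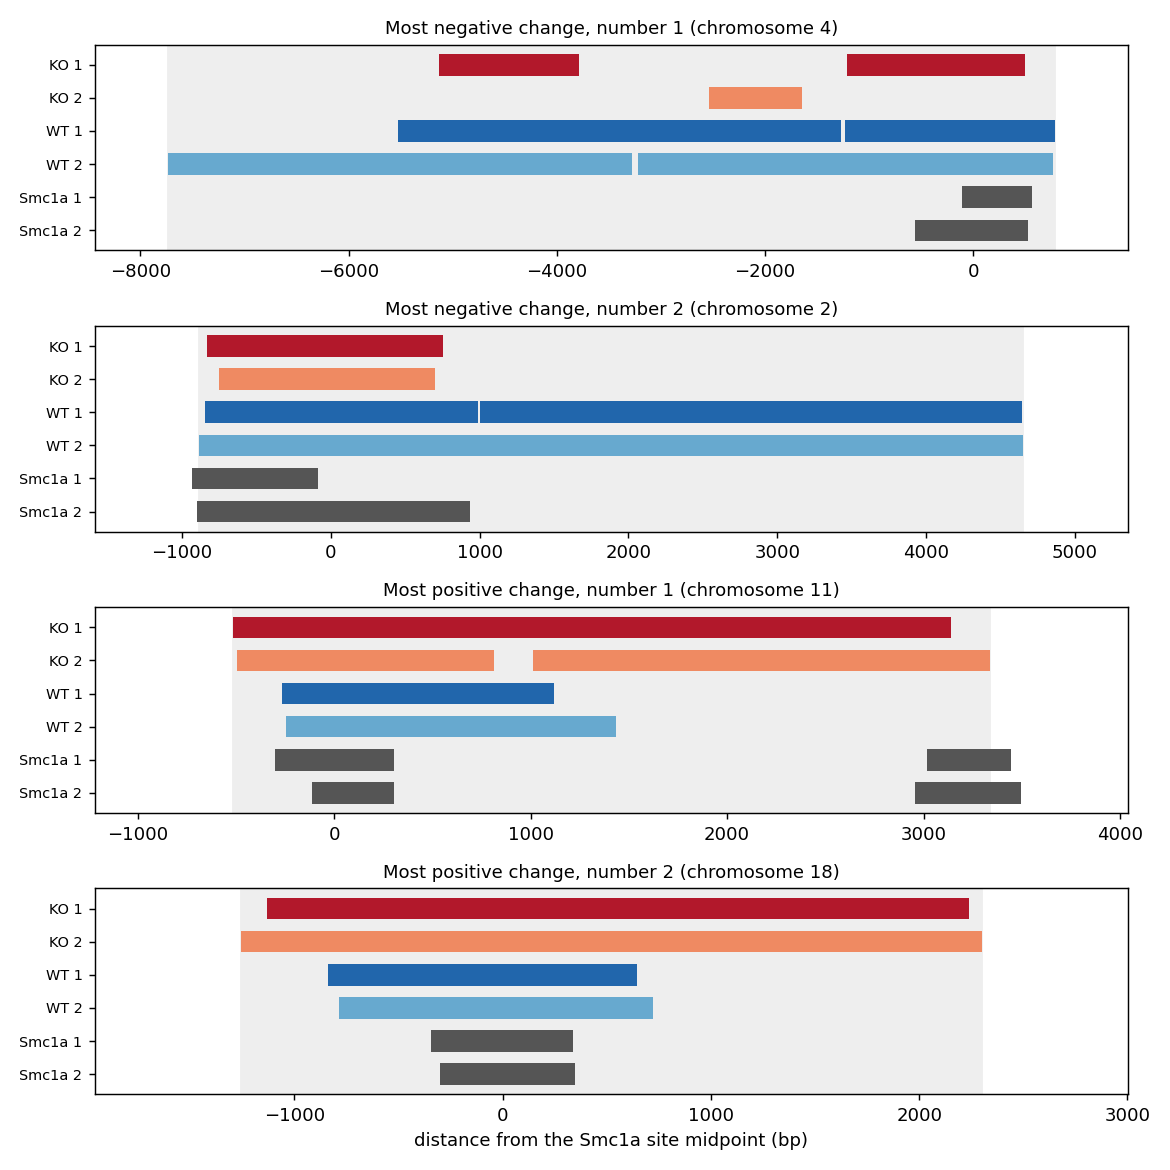
H3K27ac peaks of the KO and WT libraries and Smc1a peaks of both Smc1a replicates (bars) in the 2 Smc1a-bound regions with the most negative and the 2 with the most positive change, by distance from the Smc1a site midpoint (horizontal axis, bp); grey shading is the union region. On chromosome 2 the KO peaks (1581 and 1458 bp) stay on the Smc1a site and the WT peaks (5477 and 5539 bp) run on, and on chromosome 18 the KO peaks (3371 and 3558 bp) extend past the WT peaks (1487 and 1509 bp) on both sides.

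The regions with the strongest Smc1a calls differed among themselves. They were ranked by the lower of the replicate scores of their best site. The first, chr13:13608455-13613962, had a site scored 2651.12 and 2018.24 in the Smc1a lists and was covered over 4476 and 3748 bp in KO and 5076 and 5323 bp in WT libraries. The second, chr3:21832682-21837880, had scores of 2703.98 and 1879.31 and was covered over 3813 and 3956 bp in KO and 5134 and 4566 bp in WT libraries. At chr15:66689095-66698919 the covered length was 6777 and 4620 bp in KO and 8511 and 9825 bp in WT libraries. KO values lay below WT values in each of these 3 regions, and in 6 of the 10 strongest in all. The same order was seen in 32.4% of all Smc1a-bound regions and in 22.9% of all shared regions. A count over 10 regions was not tested.

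In the remaining 4 of the 10 the groups overlapped. At chr9:32394190-32401250 the values were 6661 and 4119 bp in KO and 4179 and 6739 bp in WT libraries, so the libraries of 1 genotype differed more than the genotypes. At chr10:19409783-19413923, where all 4 libraries had the tied score of 3100, the values were 3966 and 3292 bp in KO and 3317 and 4105 bp in WT libraries. Of the regions with the most sites, chr5:105921070-105930686 held 4 and was covered over 8970 and 7465 bp in KO and 9489 and 5810 bp in WT libraries. The other region with 4 sites, chr18:15404256-15407869, was covered over 2324 and 1249 bp in KO and 3345 and 3614 bp in WT libraries, and its sites had low Smc1a scores of 53.89 to 173.35.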

How the data were processed

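H3K27ac was mapped in 2 KO and 2 WT libraries and Smc1a in 2 WT libraries. The 5 input libraries were not used here. Alignment used Bowtie 0.12.8 and the build was mm9, per the submitters' processing notes. Each deposited list holds the peaks of 1 library under names that start with MACS. For the caller's version, settings and input, the sources used here give nothing. The deposited score of each peak is the authors' value, with a lowest value of 50 or 50.01 in each list, and was used only within a list.

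Peaks were merged and covered lengths computed with scipy 1.17.1, pandas 2.3.3, numpy 2.4.6 and matplotlib 3.10.9 (figures) under Python 3.11.15, and checked on simulated data. Per-region tests used limma 3.58.1 (R 4.3.3) with a mean trend on log2 covered bp of all 12129 shared regions. No covered length was 0 there, so no pseudocount was needed and every Smc1a-bound region was fitted. For 1 value per library, the exact permutation test was two-sided. No 2 lists of a target held an identical peak. Members, comparisons and the naming rule were chosen with earlier results of these data known. The rule named the 10 regions with the strongest Smc1a calls, the 5 with the most sites, the 10 most negative and 10 most positive changes, and 3 on each side of the length limit. Counts of regions whose groups do not overlap, and the divisions of covered length by region length, neighbours and Smc1a class, were added after seeing the data. Coordinates count from 1. No mm9 genome or annotation was used, so genes, motifs, marker lists and sequences were not analysed here.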

Additional observations from a re-analysis of the deposited data

How the results depend on the processing

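Peak lists of unknown depth limit all values to the extent of calls. Of the alternatives to the main comparisons, 100 left direction and call as they were or gave a count not scored as moved, 13 moved and 3 reversed. All 283 for single regions kept their direction, though not their size. Counts not scored as moved could still differ in size. With Smc1a replicate 2 alone, 840 of 2606 regions had both KO below both WT, against 670 of 2071 in the main setting. The difference in regions called as several peaks, 2.00 points, was -0.186 with equal numbers of peaks per list and -1.09 with peaks within 1000 bp merged. The difference in the share of acetylated length, -1.27 points, ran from -3.08 to 0.542 with 1 library left out, and was above 0 without WT replicate 2. The cause of these changes was not tested. Limma called 27 Smc1a-bound regions (1.30%, 22 lower and 5 higher in KO) when regions of at least 2 libraries were fitted with a pseudocount of 100 bp. Of the regions without a site, 48 (0.506%) were called in that fit, 30 lower and 18 higher. That fit called 2.83% of 19275 regions lower and 3.28% higher, 1097 of its 1178 calls in regions missing from a library, and no other limma fit called a Smc1a-bound region. The count with both KO below both WT was 670 of 2071 regions in the main setting. It was 437 of 1276 with the upper 75% of each list, 1031 of 3615 with Smc1a replicate 1 alone and 382 of 1367 below 5000 bp. The reverse count was 247 of 2071, and 152 of the 1276 and 529 of the 3615. These counts moved along with the number of regions chosen, and shares over all shared regions are not given for these settings. With 1 library left out the rule is looser. The count below then ran from 784 to 1261 of 2071 (28.9% to 50.3% of all shared regions). The reverse count ran from 360 to 639 (25% to 39.3% of all). The highest count below and the lowest above came without KO replicate 1. Neighbours were found for 37.2% within 5000 bp and 75.4% within 25000 bp. Covered length centred per library gave 605 regions with lower and 262 with higher KO values, of 2071. Shares over all shared regions are not given for this setting either, so these counts have no reference. The labels tie same-numbered libraries by the number alone. Both replicates 2 and neither replicate 1 had Y chromosome peaks, and what the number marks was not tested. The deviations of same-numbered libraries had a correlation of 0.05 over the Smc1a-bound regions. With the replicate number as a block, the difference in median covered length is -324.5 bp by design. Each number holds 1 KO and 1 WT library, so the block cannot change it. In limma the block gave 0 called Smc1a-bound regions, and 1145 regions in all had an unadjusted p below 0.05, against 1017 without it. Gene lists, promoters and motifs were not run.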
